A study of Homo sapiens with 8 samples.

Results

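The galectins were followed as a family in cells labelled Caco-2, an established line from a human colorectal adenocarcinoma. Most intestinal markers were absent or low in these libraries, although CDX1 and CDX2 were not, and several trophoblast markers were abundant. The identity of the cells is therefore in doubt. The 7 genes LGALS1, LGALS2, LGALS3, LGALS4, LGALS8, LGALS9 and LGALSL were taken by symbol from the 63816 gene entries of the expression table. LGALS4 had 2 entries with identical values in every library, and 1 of them, ENSG00000171747, was used. RNA was sequenced from 8 samples: 4 libraries of cells that carried the empty pcDNA3.1 vector (empty vector) and 4 of cells that carried pcDNA3.1 with full-length SIGLEC12, the gene for Siglec-XII, a receptor of the Siglec family that in humans has lost sialic acid binding (Siglec-XII). Both were stable transfectants selected with G418, so an effect of Siglec-XII and a difference between the transfected and selected cell populations cannot be told apart. The series text speaks of 3 cultures per condition, whereas 4 samples are listed and the methods speak of technical replicates. The p-values therefore measure only the spread between these libraries, which may be technical.

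Galectins are small lectins that bind galactose-containing sugar chains on glycoproteins and glycolipids. They are made in the cytosol, leave the cell without a signal peptide, and cross-link receptors at the cell surface, while inside the cell they gather on endosomes and lysosomes whose membrane has been breached. In the gut, galectin-4 (LGALS4), galectin-3 (LGALS3) and galectin-2 (LGALS2) are known as products of epithelial cells. Certain sialic acid caps on galactose hinder the binding of some galectins, and most Siglecs bind sialic acid itself, although human Siglec-XII does not.

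The start regions of 4 genes are shown because they bear on the results below: LGALS3 was by far the most abundant member, LGALS9 and its relative in name LGALS3BP are known to be induced by interferon, and IFIT1 is an interferon-induced gene that rose in these cells. Each sequence covers the 250 bases before the RefSeq start of the gene in GRCh38.p14, 5′ to 3′ on the strand of the gene. Capitals mark GGGCGG (the GC box bound by Sp1 family factors) in LGALS3 and GAAANNGAAA (a core of the interferon-stimulated response element) in the others, on either strand. The windows lie at chr14:55129002-55129251 (plus strand) for LGALS3, chr17:27630938-27631187 (plus strand) for LGALS9, chr17:78979924-78980173 (minus strand) for LGALS3BP and chr10:89392373-89392622 (plus strand) for IFIT1.
LGALS3: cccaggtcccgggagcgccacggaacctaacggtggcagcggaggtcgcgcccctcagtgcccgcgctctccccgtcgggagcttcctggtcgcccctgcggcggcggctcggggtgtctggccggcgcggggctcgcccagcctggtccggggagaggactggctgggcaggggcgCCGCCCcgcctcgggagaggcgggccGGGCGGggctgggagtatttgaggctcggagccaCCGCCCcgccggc
LGALS9: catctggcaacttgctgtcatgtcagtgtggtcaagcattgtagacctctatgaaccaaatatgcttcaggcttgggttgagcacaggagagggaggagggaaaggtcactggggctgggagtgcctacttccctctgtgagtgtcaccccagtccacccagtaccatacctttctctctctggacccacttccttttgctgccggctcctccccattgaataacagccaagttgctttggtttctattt
LGALS3BP: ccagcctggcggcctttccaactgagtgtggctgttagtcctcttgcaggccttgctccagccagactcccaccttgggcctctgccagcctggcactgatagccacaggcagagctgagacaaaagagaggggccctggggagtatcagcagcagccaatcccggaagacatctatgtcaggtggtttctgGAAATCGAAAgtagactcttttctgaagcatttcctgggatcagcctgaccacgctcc
IFIT1: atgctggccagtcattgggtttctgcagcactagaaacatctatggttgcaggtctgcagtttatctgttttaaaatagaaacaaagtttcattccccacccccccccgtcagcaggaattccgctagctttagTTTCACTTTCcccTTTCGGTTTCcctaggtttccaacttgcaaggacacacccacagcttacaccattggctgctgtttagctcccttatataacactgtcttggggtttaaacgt

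Promoter entries were found for 6 of the 7 members. The LGALS3 window held 32 CG dinucleotides and 3 GC boxes, with first bases at positions -73, -47 and -13 before the start. Over all 35116 RefSeq promoter windows of this length the median was 11 CG dinucleotides, and 42.6% held a GC box. The LGALSL window was similarly rich, with 24 CG dinucleotides and 3 GC boxes. The LGALS9 window held 1 CG dinucleotide, LGALS2 held 5 and LGALS4 held 6, and the 3 LGALS8 starts held 2, 14 and 21. GAAANNGAAA was found once in LGALS3BP (first base at -58), at 2 places in IFIT1 (-116 and -103), and in none of the member windows. It was present in 3.02% of all windows.

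The transfected gene followed the labels. SIGLEC12 was at 0.0399 to 0.122 TPM (a transcript level corrected for transcript length and for the library total) in the 4 empty vector libraries and at 1582 to 1734 TPM in the 4 Siglec-XII libraries. The difference was 10.59 on the log2(TPM + 1) scale (exact permutation test, two-sided, p = 0.0286, which is the lowest value possible with 4 samples a group). With 0.1 in place of the 1 added to each TPM, the difference was 13.2. Its size thus depends on the added value, because the empty vector levels lie far below 1 TPM. The table holds no counts, so the depth behind each value is unknown, although the labels give about 25000000 to 40000000 reads per sample. Of the members, 5 of 7 reached 1 TPM in at least 4 samples and were tested, each of them in all 8 libraries. No tested member passed the limma test at an adjusted p of 0.05 over all 15590 tested entries, of which 0.648% passed, 0.34% higher and 0.308% lower. At an unadjusted p under 0.05, 2 of 5 members were called (LGALSL and LGALS9), beside 16.5% of all tested entries. LGALSL kept this under all 18 alternatives, whereas LGALS9 lost it under 9 of 18. The groups did not overlap for 1 member, LGALSL, beside 10.8% of all tested entries and 9.17% in the higher direction. The median difference of the 5 members was 0.03 (Siglec-XII minus empty vector, log2), and that of all tested entries was 0.07.

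**Figure D1:**
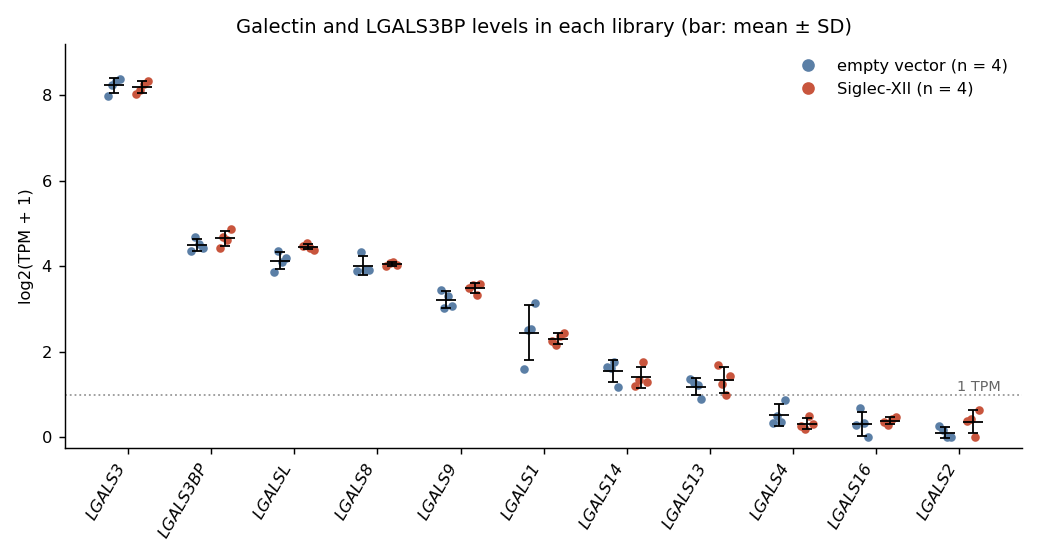
Levels of the galectin members and of LGALS13, LGALS14, LGALS16 and LGALS3BP in every library, on a log2(TPM + 1) scale. Empty vector and Siglec-XII libraries are in different colours. LGALS3 lies at 252 to 335 TPM, far above LGALSL, LGALS8, LGALS9 and LGALS1, while the used LGALS4 entry and LGALS2 lie under 1 TPM.

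LGALS3 encodes galectin-3, the chimera-type galectin, whose lectin domain carries a long tail through which molecules join into clusters. The gene lies at chr14:55590828-55612141 on the plus strand of GRCh37 (ENSG00000131981). Its level was 252, 301, 320 and 335 TPM in empty vector replicates 1 to 4 and 260.0, 279, 306 and 322 TPM in Siglec-XII replicates 1 to 4. The ranges of the groups almost coincided, and the lowest library of each was replicate 1. The means were 302 ± 36.2 and 292 ± 27.4 TPM (SD, n = 4 each), and the log2 difference was -0.05 (95% interval -0.26 to 0.17, limma adjusted p = 0.845). LGALS3 ranked 484 among all entries by mean TPM. It made up 83.7 to 87.9% of the summed TPM of the 7 members in each library, and that sum was 348 ± 39.4 TPM with empty vector and 343 ± 27.4 TPM with Siglec-XII (SD, n = 4 each).

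LGALS1 and LGALS2 encode the prototype galectins galectin-1 and galectin-2, each with a single lectin domain that pairs into a dimer. LGALS1 (chr22:38071643-38075809, plus strand) was at 2.04, 4.68, 4.77 and 7.91 TPM in the empty vector libraries and 3.76, 3.46, 4.21 and 4.47 TPM in the Siglec-XII libraries. The empty vector libraries held both the lowest and the highest value of all 8, with a 3.88-fold range against 1.29-fold among Siglec-XII libraries. The log2 difference was -0.14 (95% interval -0.75 to 0.48, limma adjusted p = 0.842). Its sign rested on single libraries: with empty vector replicate 4 left out it was 0.098, and with replicate 1 of that group left out it was -0.42 (limma adjusted p = 0.347). In empty vector replicate 1 mitochondrial genes held 11.2% of the TPM, against 6.67 to 9.97% in the other libraries, and the part of this in the LGALS1 values was not tested. LGALS2 (chr22:37966255-37978623, minus strand) was listed at 0.209, 0.131, 0 and 0 TPM with empty vector and 0.312, 0.351, 0 and 0.555 TPM with Siglec-XII, so it did not reach 1 TPM in any library and was not tested.

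LGALS8, LGALS9 and LGALS4 encode tandem-repeat galectins, with 2 different lectin domains in 1 chain. LGALS8 encodes galectin-8, which recruits the autophagy receptor NDP52 to damaged vesicles. The gene lies at chr1:236681300-236716281 on the plus strand, and GENCODE lists 28 transcripts for it. Its level was 13.8, 19.3, 14.1 and 14.1 TPM with empty vector and 15.0, 15.8, 16.1 and 15.5 TPM with Siglec-XII. Empty vector replicate 2 stood above all other libraries, and the other 3 empty vector libraries lay below every Siglec-XII library. The log2 difference was 0.03 (95% interval -0.20 to 0.27, limma adjusted p = 0.898), and it turned to -0.029 after quantile normalization.

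LGALS9 encodes galectin-9, a ligand of the T cell receptor TIM-3 that interferon is known to induce. The gene lies at chr17:25956824-25976586 on the plus strand. Its level was 9.94, 7.20, 8.96 and 7.41 TPM with empty vector and 10.2, 10.9, 9.02 and 10.99 TPM with Siglec-XII. The groups overlapped only through empty vector replicate 1, which lay above Siglec-XII replicate 3. The log2 difference was 0.27, a 1.21-fold ratio on the TPM + 1 scale (95% interval 0.02 to 0.53, limma adjusted p = 0.270). The interval included 0 under 9 of 18 alternatives, among them quantile normalization (difference 0.21) and leaving out empty vector replicate 2 (0.21) or 4 (0.22). LGALS9 also shares sequence with its near copies: 22.8% of its distinct 31-base words occur in transcripts of another gene, 16.2% in LGALS9C and 8.78% in LGALS9B, so its level is less certain than that of LGALS1 and LGALS2, which share none.

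LGALS4 encodes galectin-4, which binds sulphated glycolipids and takes part in apical transport in enterocytes. The gene lies at chr19:39292311-39303585 on the minus strand. The used entry was at 0.258, 0.422, 0.279 and 0.842 TPM with empty vector and 0.211, 0.144, 0.406 and 0.244 TPM with Siglec-XII. This entry stayed under 1 TPM in every library, with empty vector replicate 4 highest, and was not tested. The transcript named for it is classed as nonsense-mediated decay, 1 of 9 that GENCODE lists. Whether the value sums all 9 is not given. With both entries added, the means were 0.900 ± 0.542 and 0.502 ± 0.223 TPM (SD, n = 4 each), and empty vector replicate 4 reached 1.68 TPM.

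LGALSL encodes galectin-related protein, which has the galectin fold but is not known to bind galactose. The gene lies at chr2:64681103-64688515 on the plus strand. Its level was 13.7, 19.5, 16.1 and 17.4 TPM with empty vector and 21.2, 22.3, 20.7 and 19.97 TPM with Siglec-XII. All 4 Siglec-XII libraries lay above all 4 empty vector libraries, by a small margin at empty vector replicate 2. The log2 difference was 0.33, a 1.26-fold ratio on the TPM + 1 scale (95% interval 0.11 to 0.55, limma adjusted p = 0.161). Its unadjusted p ranked 806 among the tested entries. Leaving out single libraries gave differences between 0.24 and 0.40, and the adjusted p ranged from 0.0758 to 0.366 over all alternatives, so the difference did not pass the correction under any of them.

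**Figure D2:**
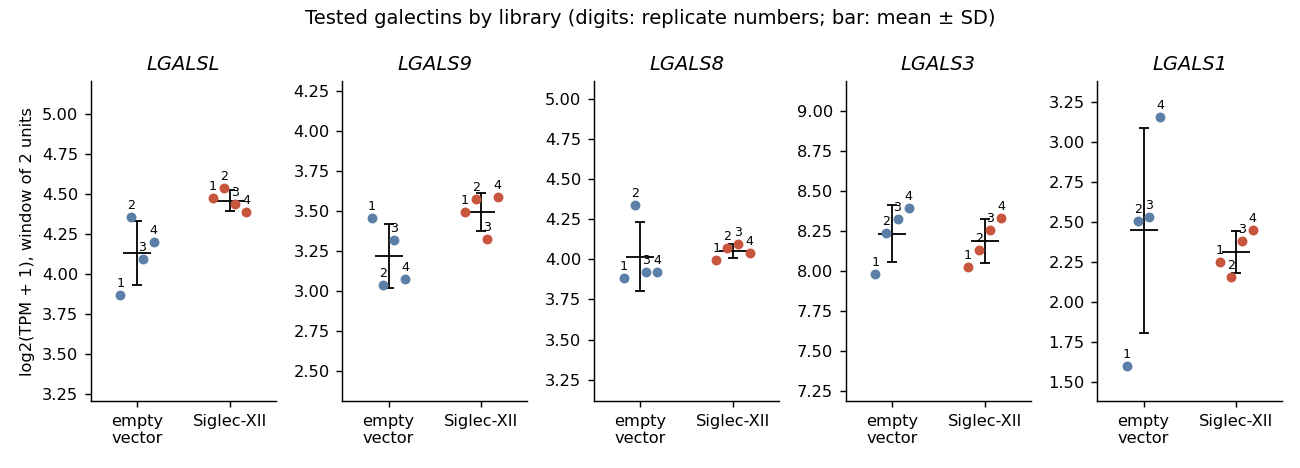
Levels of the 5 tested members on a log2(TPM + 1) scale, 1 panel each, with a point per library and the mean ± SD of each group (n = 4). LGALSL is the member whose groups do not overlap, and LGALS1 has the widest empty vector spread, 2.04 to 7.91 TPM.

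**Figure D3:**
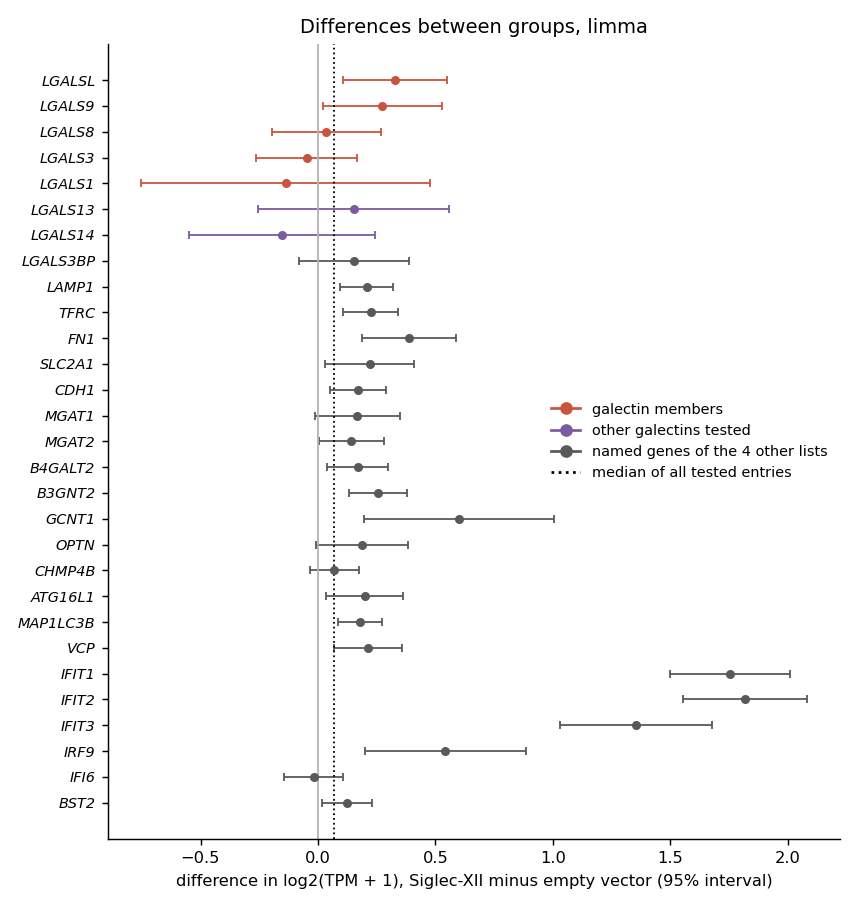
Log2 difference (Siglec-XII minus empty vector, log2(TPM + 1) scale) of each tested galectin and of the named genes of the other lists, with 95% limma intervals. The intervals of LGALSL (0.11 to 0.55) and LGALS9 (0.02 to 0.53) lie above 0, and those of LGALS3, LGALS8 and LGALS1 include 0.

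The order of the levels was LGALS3, LGALSL, LGALS8, LGALS9, LGALS1, LGALS14, LGALS13, LGALS4, LGALS16 and LGALS2 by mean TPM. The ranges over the 8 libraries did not overlap between LGALS3 and LGALSL, between LGALS8 and LGALS9, or between LGALS13 and the used LGALS4 entry. With both LGALS4 entries added, LGALS4 was at 1.68 TPM in empty vector replicate 4, where LGALS13 was at 0.866 TPM. The ranges of LGALS13 and LGALS4 then overlapped. The other neighbours overlapped, with LGALSL above LGALS8, LGALS9 above LGALS1, and LGALS1 above LGALS14 in 7 of 8 libraries each. These ranks describe levels per transcript length within a library.

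The family was completed with 10 further galectin genes, of which 2 passed the level filter. Both, LGALS14 and LGALS13, belong to a cluster on chromosome 19 that is known for expression in the placenta. LGALS14 was at 2.14, 2.09, 2.39 and 1.27 TPM with empty vector and 1.32, 1.54, 2.40 and 1.44 TPM with Siglec-XII (log2 difference -0.15, limma adjusted p = 0.708). LGALS13 was at 1.57, 1.42, 1.34 and 0.866 TPM with empty vector and 2.23, 1.37, 0.997 and 1.70 TPM with Siglec-XII (log2 difference 0.15, limma adjusted p = 0.717). The groups overlapped for both, and both differences moved with single libraries. That of LGALS13 was 0.034 with Siglec-XII replicate 1 left out, 0.054 with empty vector replicate 4 left out and 0.27 with Siglec-XII replicate 3 left out. That of LGALS14 lay between -0.28 (empty vector replicate 4 left out) and -0.083 (empty vector replicate 3 left out), and was -0.089 and -0.27 with Siglec-XII replicates 1 and 3 left out. LGALS16 of the same cluster was at 0 to 0.606 TPM. LGALS9B, LGALS9C, LGALS12 (known from fat cells) and CLC (known from eosinophils) did not exceed 0.249 TPM, and LGALS7 and LGALS7B (known from keratinocytes) and GRIFIN (known from the lens) were listed at 0 in all 8 libraries.

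The low LGALS4 and LGALS2 were set beside the markers of the labelled tissue. Of 12 intestinal epithelial markers, 2 passed the filter, the transcription factors CDX1 (mean 147 TPM) and CDX2 (40.6 TPM). KRT20, SI, FABP1 and TFF3 were listed at 0 in all 8 libraries, and VIL1 and HNF4A did not pass. All 5 general epithelial markers passed. Of 13 trophoblast markers 10 passed, while ELF5, CGB5 and GCM1 did not. The higher ones were GATA3 (mean 380 TPM), HSD3B1 (345 TPM), PAGE4 (285 TPM), KRT7 (247 TPM), TFAP2C (161 TPM) and TFAP2A (33.0 TPM). The others that passed were low: CYP19A1 (3.59 TPM), ERVW-1 (1.40 TPM), ERVFRD-1 (1.22 TPM) and CGA (0.785 TPM). The summed trophoblast markers were 1423 to 1545 TPM with empty vector and 1427 to 1450 TPM with Siglec-XII, and the summed intestinal markers were 163 to 186 and 190.1 to 215 TPM. Of 7 fibroblast markers 5 passed, at a sum of 70.7 to 89.1 TPM over all libraries, with THY1 at 0. Of 7 blood markers 2 passed, at a sum of 1.68 to 3.38 TPM, with HBB at 0. Most intestinal markers and the abundant trophoblast markers go against the label, though CDX1 and CDX2 do not. The cells may therefore not be those the label names. The low LGALS4 and LGALS2 and the detected LGALS13 and LGALS14 are to be read with that doubt. The part of these cell type markers in the galectin levels was not tested. In bulk RNA, fewer cells with a transcript and less of it per cell cannot be told apart.

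**Figure D4:**
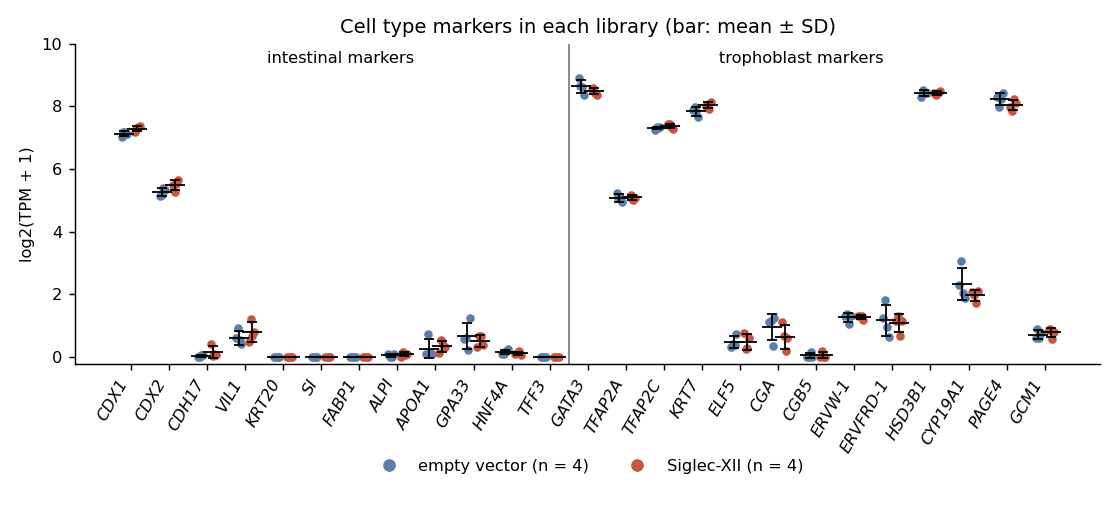
Levels of intestinal and trophoblast markers in every library on a log2(TPM + 1) scale. In the intestinal panel only CDX1 and CDX2 passed the filter and 4 markers lie at 0 in all libraries. Of the 13 trophoblast markers 10 passed, with CGA, ERVFRD-1 and ERVW-1 near 1 TPM.

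None of the glycoproteins known to bind galectins passed the limma test. Of 26 listed genes 19 were tested, 16 with a higher and 3 with a lower mean with Siglec-XII. Their median log2 difference was 0.15 beside 0.07 for all tested entries. All tested entries leaned the same way, with groups that did not overlap in 9.17% higher and 1.68% lower. The counts of higher and lower means here and in the lists that follow are to be read beside that lean. The share of all tested entries with a higher mean was not counted. The 16.5% set beside unadjusted calls holds both directions. At an unadjusted p under 0.05, 6 of 19 were called (16.5% of all tested entries), and in 6 the groups did not overlap (9.17% of all tested entries in that direction), all higher with Siglec-XII. The matrix protein FN1 differed by 0.39 (limma adjusted p = 0.102), the transferrin receptor TFRC by 0.22 (0.105) and the lysosomal membrane protein LAMP1 by 0.21 (0.109). With quantile normalization FN1, TFRC and LAMP1 differed by 0.33, 0.18 and 0.14, and the median of all tested entries was 0.0095. The abundant surface proteins SLC2A1, a glucose transporter, and CDH1, E-cadherin, differed by 0.22 and 0.17 (limma adjusted p = 0.239 and 0.176). LGALS3BP, a secreted galectin-3 ligand chosen for mention after its values were seen, was at 19.4, 24.7, 22.1 and 20.6 TPM with empty vector and 20.5, 24.9, 23.6 and 28.2 TPM with Siglec-XII. Its groups overlapped and the log2 difference was 0.15 (95% interval -0.08 to 0.39, limma adjusted p = 0.494).

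Enzymes that build or cap galectin ligands gave no call either. Of 19 listed genes 17 were tested, 11 higher and 6 lower, with a median log2 difference of 0.11 beside 0.07 for all tested entries. At an unadjusted p under 0.05, 4 of 17 were called, all higher, beside 16.5% of all tested entries. B3GNT2, which starts the poly-N-acetyllactosamine chains that galectins bind well, was at 72.98 ± 3.17 TPM with empty vector and 87.4 ± 5.04 TPM with Siglec-XII (SD, n = 4 each), without overlap (log2 difference 0.26, limma adjusted p = 0.0891). GCNT1, the core 2 branching enzyme of O-glycans, was at 3.88 ± 1.43 and 6.20 ± 0.465 TPM (SD, n = 4 each), with overlap through empty vector replicate 1 (log2 difference 0.60, limma adjusted p = 0.160). The N-glycan branching enzymes MGAT1 and MGAT2 and the galactosyltransferase B4GALT2 differed by 0.17, 0.14 and 0.17 (limma adjusted p = 0.339, 0.290 and 0.209). With quantile normalization the unadjusted limma p of MGAT2 and B4GALT2 rose to 0.211 and 0.102. Those of B3GNT2 and GCNT1 were then 0.00519 and 0.0199.

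Genes that act with galectins at damaged vesicles gave no call, with 15 listed, 14 tested, 10 higher and 4 lower. At an unadjusted p under 0.05, 3 of 14 were called, all higher, beside 16.5% of all tested entries, and the median log2 difference was 0.11 beside 0.07. MAP1LC3B, an autophagosome protein, differed by 0.18 (limma adjusted p = 0.104), ATG16L1, part of its conjugation machinery, by 0.20 (0.232), and the segregase VCP by 0.21 (0.162). The groups did not overlap for these 3, beside 9.17% of all tested entries in that direction. With quantile normalization the unadjusted limma p was 0.132 for ATG16L1, 0.0163 for MAP1LC3B and 0.0333 for VCP. The autophagy receptor OPTN differed by 0.19 (limma adjusted p = 0.317) and the membrane repair subunit CHMP4B by 0.07 (0.481).

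Of the interferon-induced genes, 16 were listed, 13 tested and 3 passed the limma test, all higher with Siglec-XII, beside 0.34% of all tested entries. The 3 are IFIT1, IFIT2 and IFIT3, RNA-binding antiviral proteins, which reached 1 TPM only in the Siglec-XII libraries. They passed the level filter through that group alone, so 3 of 13 cannot be weighed against that 0.34%. With no filter IFIT1, IFIT2 and IFIT3 were also called (limma adjusted p = 0.00293, 0.00293 and 0.0157). IFIT1 rose from 0.320 ± 0.0496 to 3.45 ± 0.127 TPM (SD, n = 4 each). The log2 differences were 1.75 for IFIT1, 1.82 for IFIT2 and 1.35 for IFIT3 (limma adjusted p = 0.000124, 0.000124 and 0.00237), and the pseudocount of 1 understates these low genes. The median log2 difference of the 13 genes was 0.20. IRF9, a subunit of the interferon-activated factor ISGF3, differed by 0.54 (limma adjusted p = 0.144), while the abundant IFI6 and BST2 differed by -0.02 and 0.12 (limma adjusted p = 0.898 and 0.238). LGALS9 and LGALS3BP, which interferon is also known to induce but which were not on this list, differed by 0.27 and 0.15 and did not pass the test.

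**Figure D5:**
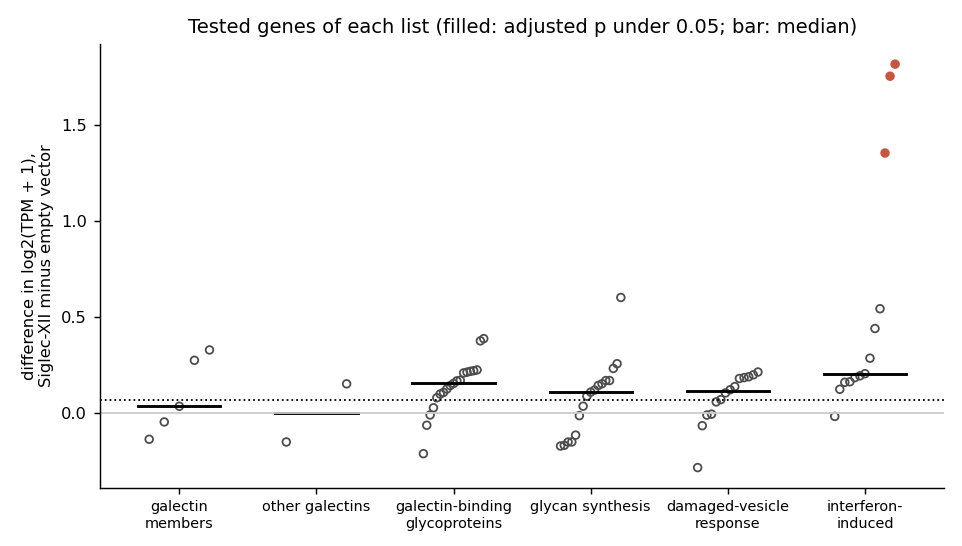
Log2 difference (Siglec-XII minus empty vector) of each tested gene, by list, with the median of each list and of all tested entries (0.07). IFIT1, IFIT2 and IFIT3 stand apart at 1.35 to 1.82, and the 5 members lie between -0.14 and 0.33.

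The entries whose levels varied most like each member over the 8 libraries were found by Pearson's r of log2(TPM + 1). These were HCCS (r = 0.987) and TBKBP1 (0.978) for LGALSL, and NT5C (0.978) and RBMX (0.972) for LGALS3. For LGALS9 they were PJA1 (0.956) and ZKSCAN1 (0.955), and for LGALS1 FASTKD2 (0.979) and TNFSF8 (0.972). For LGALS8 they were VARS (0.982) and RELL1 (0.958). This VARS entry, ENSG00000231945 (mean 1.49 on the log2 scale), has an ID that the GENCODE annotation does not hold. The entries named are the highest of 15590 over libraries that share 2 transfected populations, and are given as a description only.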

How the data were processed

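RNA-seq of 8 samples labelled Caco-2 (4 empty vector, 4 Siglec-XII) was analysed. Per the labels libraries came from rRNA-depleted total RNA, whereas the methods name a poly(A) kit. The authors quantified reads against the human hg19 build (kallisto 0.45.0 in the submitters' processing notes) and deposited 1 table of log2(TPM + 1) values, each entry bearing a gene ID and 1 transcript ID. Whether a value sums all transcripts of a gene is not given in the sources used here. A fit on counts was therefore not made.

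Entries with at least 1 TPM in at least 4 samples were tested with limma 3.58.1 (group as the only term, eBayes with trend, Benjamini-Hochberg over all 15590 tested entries, adjusted p threshold 0.05), checked on simulated data first. SIGLEC12 was tested by exact permutation. Gene positions came from GENCODE v44 lifted to GRCh37, by gene ID, which held 55485 of 63816 entries (86.9%). Promoters came from RefSeq (GRCh38.p14). Shared sequence was the share of a gene's distinct 31-base words found in transcripts of other genes.

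The members and gene lists were chosen with earlier results of these data known. The text names all members, the other galectins, the cell type markers, and in each list the 4 genes of smallest unadjusted p, the 2 of highest mean and all genes called, plus the 2 entries most correlated with each tested member. Alternatives were other pseudocounts, filters and normalizations, a replicate block, and each library left out.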

Additional observations from a re-analysis of the deposited data

Results flagged for a closer look

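Of 72 gene and group combinations tested for a sample far from the others by Dixon's gap, 5 were picked out, and chance alone picks about 5%. LGALS8 was 4.34 on the log2(TPM + 1) scale in empty vector replicate 2, against 3.89 to 3.92 in the other 3. FN1 was 3.79 in Siglec-XII replicate 1, below the 3.93 to 3.95 of the others. The other 3 were near 0: LGALS9B was 0.28 in empty vector replicate 4, and CLC (0.17) and LGALS12 (0.065) were detected in Siglec-XII replicate 4 alone of its group. For these 3 the rest of the group lay at 0, so any value above 0 was bound to be picked. The 5% does not apply to them.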

How the results depend on the processing

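None of the members passed an adjusted p of 0.05 under any alternative run. Of 497 values of single genes under alternatives, 487 kept their direction and their side of the threshold and 10 changed sign, all small. LGALS8 became -0.029 with quantile normalization, -0.023 with upper quartile scaling, -0.0057 without mitochondrial and the 100 highest entries, and -0.0094 without empty vector replicate 1. LGALS1 became 0.098 and LGALS3 0.0051 without empty vector replicate 4, and LGALS3 0.0060 without Siglec-XII replicate 1. IFI6 became 0.0054, 0.0031 and 0.0022 without empty vector replicate 3, empty vector replicate 4 and Siglec-XII replicate 1. The other ends of these leave-one-out ranges were 0.14 for LGALS8 and -0.067 for IFI6 (both without empty vector replicate 2), and -0.42 for LGALS1 and -0.13 for LGALS3 (both without empty vector replicate 1). The cause was not tested.

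The 101 entries called in all (53 higher, 48 lower) became 51 with no filter, 50 with protein-coding entries only (42 higher, 8 lower), 54 without the trend, and 49 (without empty vector replicate 3, 17 higher and 32 lower) to 159 (without empty vector replicate 2, 111 higher and 48 lower) with 1 library left out. The split was 28 higher and 58 lower with quantile normalization, 24 and 58 with upper quartile scaling, and 25 and 48 without mitochondrial and the 100 highest entries. With a mean of at least 5 TPM, 0 genes of the context lists were called by limma, since IFIT1, IFIT2 and IFIT3 fall below it, and LGALS1 was not tested. SIGLEC12 differed by 10.57 to 10.62 with 1 library left out, where 3 against 4 samples allow no p below 0.0571. With a pseudocount of 0.1 TPM it differed by 13.2. A replicate block gave 69 calls (18 higher, 51 lower) and 0 members, but same-numbered samples did not deviate together (r -0.0742 to 0.0591, and 2 of 4 correlated best with their own number), so the numbers were not taken as pairs. LGALS2 and LGALS4, tested with no filter, gave limma adjusted p of 0.656 and 0.735. Without counts, no detection limit can be given for them.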

Other observations

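RNAs named after galectin genes were at or near 0. LGALSL-DT, which is transcribed away from the start of LGALSL, was at 0 to 0.45 TPM over the 8 libraries and at 0 in 2 of them. LGALS8-AS1, antisense to LGALS8, reached 0.0784 TPM. The pseudogenes LGALS17A and LGALS9DP reached 0.0616 and 0.0956 TPM and were listed at 0 in 7 libraries each.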
